A study of Danio rerio with 2 samples.

Results

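Genes of the complement system were described in whole zebrafish embryos (Danio rerio, AB strain background) at 28 hours post fertilization, in 1 library of embryos labelled ezh2-/- and 1 library of wild-type (WT) embryos. The enzyme Ezh2 methylates histone H3 at lysine 27 as part of Polycomb repressive complex 2. Every locus of the deposited table whose zebrafish KEGG (Kyoto Encyclopedia of Genes and Genomes) hit or product name is a complement component or complement factor was taken, which gave 10 of the 1287 listed loci. They are 4 copies of C3 (c3a.1, c3a.2, a locus named complement C3-H1-like and a locus named complement C3-like), the C4 gene c4b, factor B (cfb), properdin (cfp), a locus named complement component C6-like, and the C7 genes c7b and c7a. The sources used here give neither the ezh2 allele nor the number of embryos per library, and ezh2 itself is not among the listed loci, so the genotype labels were not checked on the targeted gene.

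Complement is a set of secreted proteins that mark and lyse microbes. C3 is its central protein: convertase enzymes cleave C3, and the larger fragment binds covalently to nearby surfaces through a thioester. C4 belongs to the same thioester family and forms part of the convertase of the classical and lectin pathways, whereas factor B supplies the protease of the alternative pathway convertase, which properdin stabilises. C6 and C7 belong to the terminal pathway, in which they join C5b on the way to the membrane attack complex. In adult vertebrates the liver makes most circulating complement, and macrophages and epithelia also make some.

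The data are a read count and an FPKM (fragments scaled to transcript length and library size) for each locus in each library. With 1 library per genotype there is no replicate check, no test and no spread between replicates. Folds below are ratios of counts, ezh2-/- over WT, on the scale that the authors' own fold changes imply, and the bracketed range is a 95% exact interval that covers counting error only. The table holds only loci that the authors had selected as different: tested on it, no absolute log2 fold change in the authors' deposited table is under 1, and the largest FDR (false discovery rate) there is 0.00996. Each complement locus was therefore bound to differ, and complement genes outside the table were not analysed here. In whole embryos, a change in the number of cells that make a transcript and a change in the transcript per cell cannot be told apart.

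All 10 listed complement loci were higher in the ezh2-/- library, each by at least 2-fold on the authors' scale. Of all 1287 listed loci, 68.1% were at least 2-fold higher and 31.9% at least 2-fold lower. At 4-fold, 3 of the 10 were higher, against 22.5% of all listed loci. The 3 were c3a.2, the C3-like locus and the C6-like locus. The 10 loci had a median log2 fold change of 1.41, against 1.31 over all listed loci and 1.61 over the 876 higher ones. Thus 6 of the 10 lay below the median of the higher loci and 4 above it. The complement loci were better counted than most: their median count was 564 in the ezh2-/- library and 226.5 in the WT library, whereas the 876 higher loci had a median of 199 in the ezh2-/- library and 64 in the WT library. Together the 10 loci held 2.83% of the counts of all listed loci in the ezh2-/- library and 1.09% in the WT library. Most of these were counts of c3a.1, with 14050 of 21616 in the ezh2-/- library and 6136 of 8747 in the WT library.

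The direction rests on the scale set between the libraries. As an alternative, the median over the listed loci was set to 0, a shift of -1.31 for every locus, and so was their 30% trimmed mean, a shift of -1.22. Under both, 7 complement loci stayed above 0 and 3 (c3a.1, cfb and c7a) lay below it. By construction, as many listed loci lie above 0 as below it with the median set to 0. The smaller shift of the trimmed mean leaves no fewer above 0. Under both, 2 of the 10 (c3a.2 and the C3-like locus) were at least 2-fold higher and 0 were at least 2-fold lower. Of all listed loci, 16.3% were then at least 2-fold higher with the median set to 0, and 17.5% with the trimmed mean set to 0. Both alternatives centre on a table in which most loci were selected as higher. Comparisons between complement loci do not depend on that scale, since it cancels in a ratio of their folds.

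**Figure D1:**
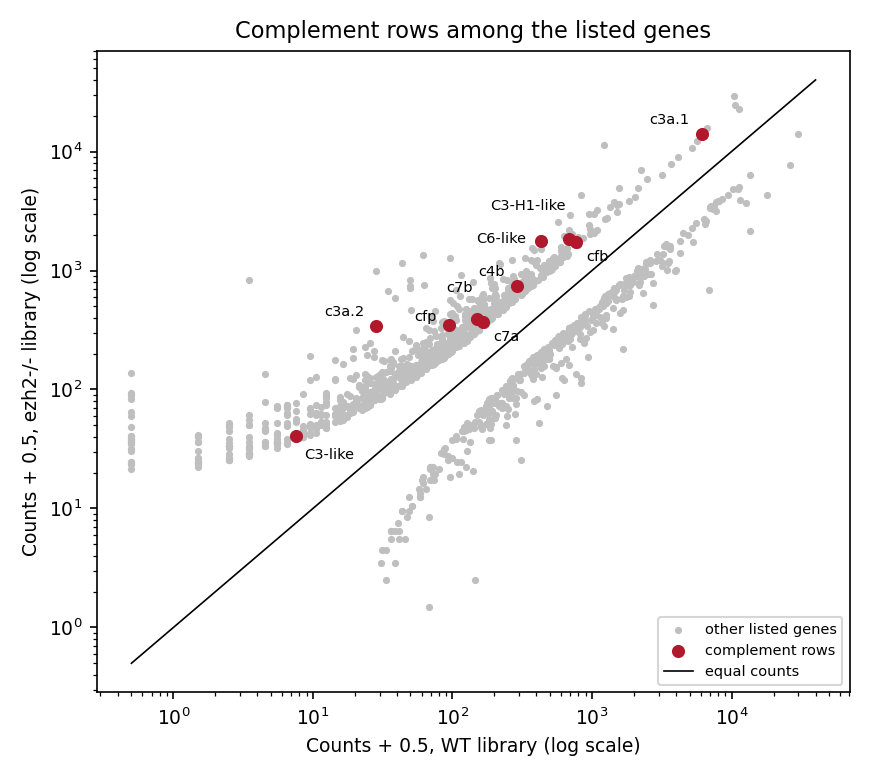
Counts with 0.5 added in the WT library (horizontal, log scale) and the ezh2-/- library (vertical, log scale) for the 1287 listed loci, with the 10 complement loci in red and labelled. The empty band around the line of equal counts is the authors' selection; all 10 complement loci lie above the line, though 3 of them have a fold below the median of the listed loci, and c3a.2 lies farthest from it.

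Among the listed C3 copies, the most abundant had the smallest fold, and folds ran from 2.31 to 12.3. Loci with few counts entered the table only with larger folds, so the selection bears in part on this order. The locus c3a.1 had 14050 counts in the ezh2-/- library and 6136 in the WT library. Its level was 129 FPKM in the ezh2-/- library and 55.8 FPKM in the WT library, a count ratio of 2.31-fold (2.24 to 2.38). By FPKM it ranked 22 of the 1287 listed loci in the ezh2-/- library and 65 in the WT library, and its difference in FPKM, 73.2, was the 12th largest upward among them. Its fold exceeded that of only 18.5% of the higher loci.

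The C3-H1-like locus had 1830 counts in the ezh2-/- library and 689 in the WT library, or 16.2 FPKM in the ezh2-/- library and 6.19 FPKM in the WT library. The count ratio was 2.68-fold (2.46 to 2.93). It was the next most abundant of the listed C3 copies in both libraries. Its fold was 1.16 times that of c3a.1 (1.06 to 1.27), and a 99% interval also stayed above 1, from 1.03.

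The locus c3a.2 had 341 counts in the ezh2-/- library and 28 in the WT library. Its level was 3.25 FPKM in the ezh2-/- library and 0.259 FPKM in the WT library, a count ratio of 12.3-fold (8.36 to 18.8). That was the highest fold among the 10 loci, and rank 77 among the 1287 listed loci. The fold of c3a.2 was 5.32 times that of c3a.1 (3.61 to 8.13) and 4.58 times that of the C3-H1-like locus (3.08 to 7.07). At 99% these intervals start at 3.24 and 2.76. The level of c3a.1 per length was 39.7 times that of c3a.2 in the ezh2-/- library and 215 times in the WT library. Beside c3a.1, c3a.2 thus remained a minor copy in both.

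The C3-like locus was the least abundant of the listed complement loci. It had 40 counts in the ezh2-/- library and 7 in the WT library. Its level was 0.379 FPKM in the ezh2-/- library and 0.0704 FPKM in the WT library. Its fold of 5.77 (2.56 to 15.3) was poorly determined. With 0.1 added to each FPKM value its log2 fold change was 1.49, against 2.45 from counts. The fold of c3a.2 was 2.13 times that of the C3-like locus, with an interval (0.736 to 5.41) that includes equal folds. At such low counts only large folds entered the table, as the scatter of counts shows.

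Summed over the 4 C3 loci, there were 16261 counts in the ezh2-/- library and 6860 in the WT library, 2.39-fold higher (2.33 to 2.46). On the log2 scale this sum was -0.047 with the median of the listed loci set to 0 and 0.036 with their trimmed mean set to 0. Without c3a.1, the log2 fold change of the sum was 1.62 in place of 1.26. The copies' shares of that sum shifted. The share of c3a.1 was 86.4% in the ezh2-/- library (85.9 to 86.9) and 89.4% in the WT library (88.7 to 90.2). The share of c3a.2 was 2.10% in the ezh2-/- library (1.88 to 2.33) and 0.408% in the WT library (0.271 to 0.589). For the C3-H1-like locus the shares were 11.3% in the ezh2-/- library (10.8 to 11.7) and 10.0% in the WT library (9.34 to 10.8), with intervals that overlap at the edge. For the C3-like locus they were 0.246% in the ezh2-/- library (0.176 to 0.335) and 0.102% in the WT library (0.0410 to 0.210), with intervals that overlap. These are exact (Clopper-Pearson) intervals.

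The C3 copies are similar in sequence, and the sources used here do not say how reads that fit several copies were counted. Values of single copies are therefore uncertain, and each of the 4 loci was deposited with the same closest Swiss-Prot match, a C3 fragment of rainbow trout. In the RefSeq gene order of assembly GRCz12tu, from which no coordinates were taken, c3a.1 lies beside c3a.5 and c3a.6, and c3a.2 beside c3a.3. Between c3a.1 and c3a.2 lie 3 other protein-coding genes (crb3b, dennd1c and zgc:65894). The C3-H1-like and C3-like loci have no zebrafish KEGG hit, so they were not assigned to any of these symbols.

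**Figure D2:**
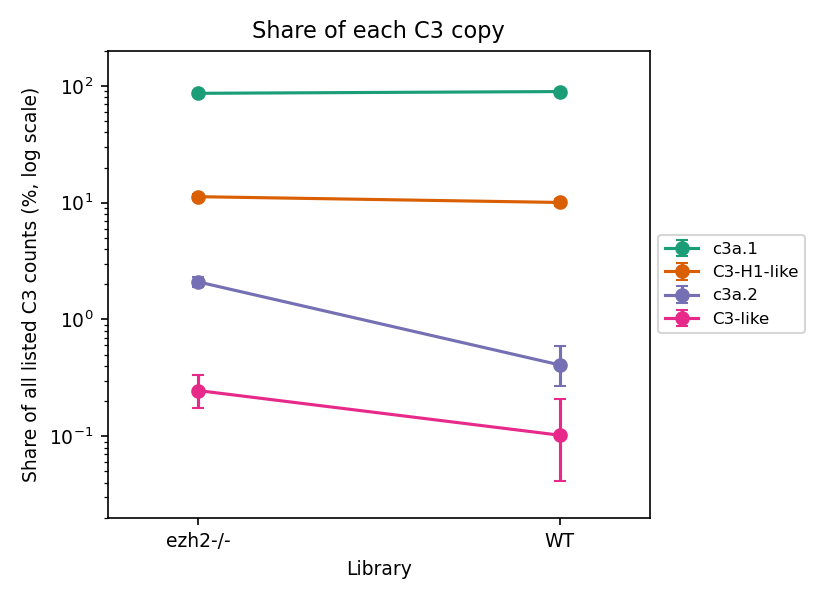
Share of the summed counts of the 4 listed C3 loci (percent, log scale) held by each copy in the ezh2-/- library and the WT library; bars are 95% exact intervals, which cover counting error only. The share of c3a.2 is 2.10% in ezh2-/- and 0.408% in WT, and the intervals do not overlap.

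The C4 gene c4b, whose product acts in the classical and lectin pathways, had 738 counts in the ezh2-/- library and 289 in the WT library. Its level was 7.46 FPKM in the ezh2-/- library and 2.76 FPKM in the WT library, and its fold was 2.58 (2.25 to 2.97). That fold was 1.12 times that of c3a.1, with an interval that includes equal folds (0.969 to 1.29).

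In the alternative pathway, factor B was the second most abundant of the listed complement loci per length in both libraries. The gene cfb had 1734 counts in the ezh2-/- library and 762 in the WT library, at 40.0 FPKM in the ezh2-/- library and 16.3 FPKM in the WT library. The fold of 2.30 (2.11 to 2.51) was close to that of c3a.1: the ratio of the folds, c3a.1 over cfb, was 1.01 (0.918 to 1.102). The level of c3a.1 was 3.23 times that of cfb in the ezh2-/- library and 3.43 times in the WT library, by FPKM. In the RefSeq gene order, cfb lies beside bfb and cfbl, and whether reads were divided between these loci was not tested. Properdin was scarcer and differed more. The gene cfp had 350 counts in the ezh2-/- library and 94 in the WT library, at 3.97 FPKM in the ezh2-/- library and 0.980 FPKM in the WT library. The fold was 3.76 (2.99 to 4.77). Its fold was 1.64 times that of cfb (1.28 to 2.11), and the 99% interval starts at 1.19. The level of cfb was 10.1 times that of cfp in the ezh2-/- library and 16.6 times in the WT library.

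In the terminal pathway, the C6-like locus stood above the C7 genes in level and in fold. It had 1775 counts in the ezh2-/- library and 429 in the WT library, at 31.2 FPKM in the ezh2-/- library and 7.51 FPKM in the WT library. The fold was 4.18 (3.76 to 4.65). The C7 gene c7b had 390 counts in the ezh2-/- library and 149 in the WT library, at 6.69 FPKM in the ezh2-/- library and 2.53 FPKM in the WT library. Its fold was 2.64 (2.18 to 3.21). The other C7 gene, c7a, had 368 counts in the ezh2-/- library and 164 in the WT library, at 6.51 FPKM in the ezh2-/- library and 2.84 FPKM in the WT library. Its fold was 2.27 (1.88 to 2.74). The C7 genes were thus at like levels, and their folds were not separated at this depth, with a ratio of 1.17 for c7b over c7a (0.888 to 1.53).

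The fold of the C6-like locus was 1.58 times that of c7b (1.26 to 1.97) and 1.84 times that of c7a (1.48 to 2.29). At 99% these intervals start at 1.18 and 1.38. The level of the C6-like locus was 4.66 times that of c7b in the ezh2-/- library and 2.97 times in the WT library. In the RefSeq gene order, c7b lies between c6.1 and c6.2, whereas no C6 gene is among the nearest 3 on either side of c7a. The product name of the C6-like locus is marked as a low-quality prediction, and it has no zebrafish KEGG hit, so it was not assigned to c6.1 or c6.2. All 3 terminal loci have the same closest Swiss-Prot match, C8 beta of a flounder.

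**Figure D3:**
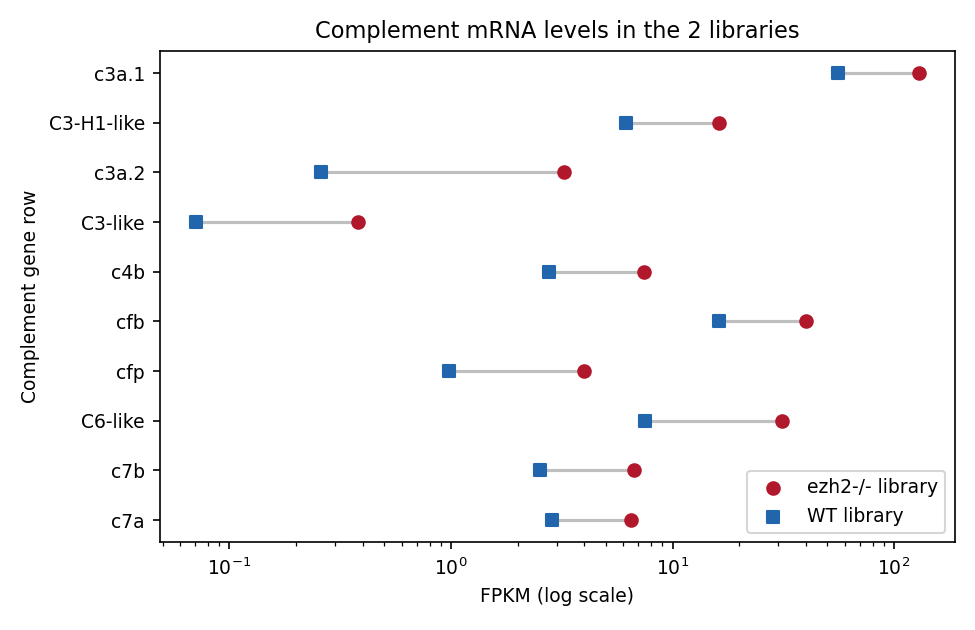
FPKM (log scale) of each listed complement locus in the ezh2-/- library (circles) and the WT library (squares), in the order C3, C4, alternative pathway, terminal pathway. Levels run from 0.379 to 129 FPKM in ezh2-/- and from 0.0704 to 55.8 FPKM in WT, and the circle lies to the right of the square at each locus.

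Across the 10 listed loci the order of levels per length was nearly the same in both libraries. From the top, the order was c3a.1, cfb, the C6-like locus and the C3-H1-like locus, and at the bottom cfp, c3a.2 and the C3-like locus. Between these, c4b, c7b and c7a lay between 6.51 and 7.46 FPKM in the ezh2-/- library and between 2.53 and 2.84 FPKM in the WT library, and changed places. In the ezh2-/- library c4b was highest of these, and in the WT library c7a was. Without replicates, the spread of these levels is not known. In the ezh2-/- library 9 of the 10 were above 1 FPKM, and in the WT library 7 were.

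The folds formed a close set with a few loci above it. The 6 loci c3a.1, the C3-H1-like locus, c4b, cfb, c7b and c7a lay between 2.27-fold and 2.68-fold. They were grouped by their folds, as the loci with a log2 fold change under 1.5. From below, the set is bounded by the authors' selection at 2-fold. Their closeness follows in part from these limits, and the pairs among them do not test it. Of the 15 pairs among these 6, the 95% interval of the ratio of folds lay above 1 in 2 pairs (the C3-H1-like locus over c3a.1 and over cfb), and the 99% interval in 1 (the C3-H1-like locus over c3a.1). Of all 45 pairs of complement loci, it lay above 1 in 25 pairs at 95% and in 20 at 99%. These intervals were not adjusted for the number of pairs and compare these libraries, not the genotypes. The 4 loci above the set were cfp, the C6-like locus, the C3-like locus and c3a.2.

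The deposited FPKM values gave like folds. The FPKM ratio of a locus was between 0.934 and 1.08 times its count ratio. The largest gaps upward were in cfp, with an FPKM ratio of 4.06 against 3.76 from counts, and in cfb, with 2.46 against 2.30. In both, the count per unit of FPKM, which follows the transcript length and library size used by the authors, was lower in the ezh2-/- library: 0.918 times that of the WT library for cfp and 0.926 times for cfb. The median over 391 well-counted loci was 0.978.

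**Figure D4:**
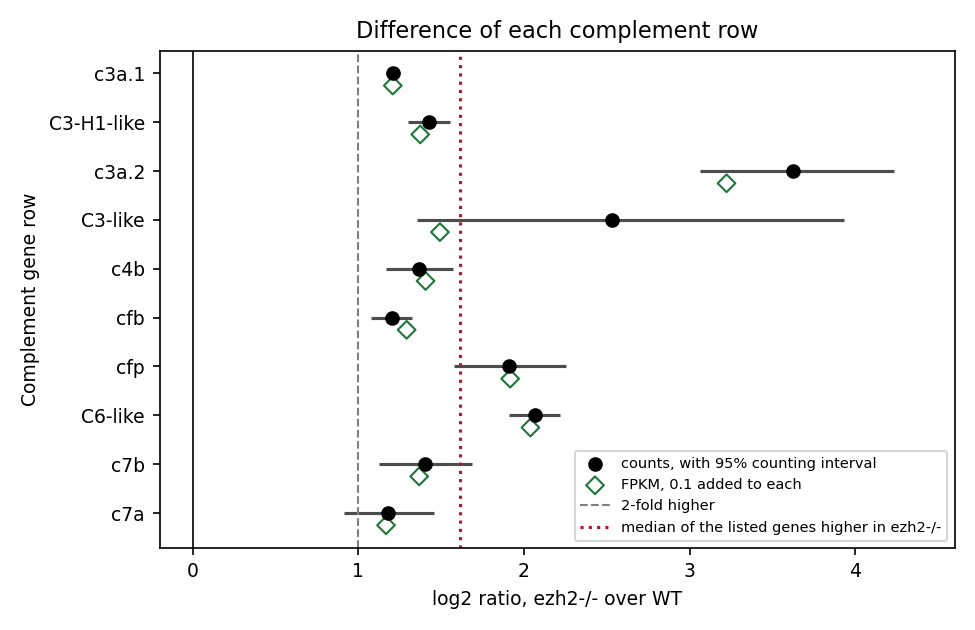
Log2 ratio of counts, ezh2-/- over WT, for each complement locus (black, with 95% exact counting interval) and the log2 ratio of FPKM with 0.1 added (green diamonds). The dashed line is 2-fold and the dotted line, at 1.61, is the median of the 876 listed loci higher in ezh2-/-. Of the 10 black points, 6 lie left of the dotted line and c3a.2 lies farthest to the right.

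The authors' deposited table gives a log2 fold change of 3.54 for c3a.2, 2.27 for the C3-like locus, 2.06 for the C6-like locus and 1.89 for cfp. For the other 6 loci the authors' deposited table gives values between 1.17 (c7a) and 1.42 (the C3-H1-like locus). In the authors' deposited table the FDR is listed as 0 for c3a.2, is 0.00224 for the C3-like locus and 0.000473 for c7a, and is at most 5.86e-05 for the rest. The sources used here do not name the test behind it, and it compares 1 library with 1 library.

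Other genes of the pathway were looked up from 6 lists of complement genes with 64 symbols in all. Of these, 10 were listed by symbol, 10 at least 2-fold higher and 0 at least 2-fold lower (median log2 fold change of 1.30, against 1.31 over all listed loci). Among all listed loci, 68.1% were at least 2-fold higher and 31.9% at least 2-fold lower. With the median of the listed loci set to 0, 5 of the 10 stayed above 0, and with the trimmed mean set to 0, 6 did. Of the 10, 7 were complement loci already counted above, and the others were hbl4, clu and serping1. The lectin gene hbl4 (hexose-binding lectin 4), counted with the lectin pathway, had 134 counts in the ezh2-/- library and 55 in the WT library, a fold of 2.46 (1.79 to 3.43). Both listed regulators, of 17 looked up, were higher too, and clu alone stayed above 0 on both centred scales. With the median set to 0 it did so barely, with a log2 fold change of 1.308 against a median of 1.306. The gene clu encodes clusterin, an inhibitor of the membrane attack complex, and had 474 counts in the ezh2-/- library and 193 in the WT library (2.48-fold, 2.09 to 2.95). The gene serping1 encodes the C1 inhibitor, which blocks the proteases of the classical and lectin pathways, and had 474 counts in the ezh2-/- library and 217 in the WT library (2.21-fold, 1.87 to 2.60). None of the 8 complement receptor genes was listed by symbol. Of the 1287 listed loci, 562 have a zebrafish KEGG symbol. A gene not found by symbol can therefore still be listed under a product name alone. The C3-H1-like, C3-like and C6-like loci are listed complement loci that were not matched by symbol.

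Regulators that act upstream of acute phase genes in mammals were looked up as well. Of 25 genes of IL-6 (interleukin 6) family signalling, C/EBP (CCAAT/enhancer-binding) factors and inflammatory signalling, 7 were listed by symbol. All 7 were at least 2-fold higher, in a table where 68.1% of the loci were. Their median was 1.83 on the log2 scale, against 1.31 over all listed loci and 1.61 over the higher ones. With the median or trimmed mean of the listed loci set to 0, 5 of the 7 stayed above 0. By construction, as many listed loci lie above 0 as below it with the median set to 0, and no fewer with the trimmed mean. The locus whose closest KEGG hit is the cytokine gene il11a had 70 counts in the ezh2-/- library and 5 in the WT library (14.1-fold, 5.78 to 44.9). The gene irf1b encodes an interferon regulatory factor and had 132 counts in the ezh2-/- library and 20 in the WT library (6.67-fold, 4.15 to 11.3). The gene socs3b, a feedback inhibitor of cytokine signalling, had 1232 counts in the ezh2-/- library and 265 in the WT library (4.70-fold, 4.11 to 5.38). The shared receptor subunit gene il6st had 1515 counts in the ezh2-/- library and 431 in the WT library (3.55-fold, 3.19 to 3.96). The other 3 listed members, named to complete the list, were stat3, nfkbiaa and cebpd, at 2.20-fold to 2.48-fold. A link between these genes and the complement levels was not tested.

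Few markers of tissues that could make complement were listed, and their counts stand beside 68.1% of all listed loci at least 2-fold higher and 31.9% at least 2-fold lower. Of 17 acute phase genes and of 17 liver genes, 1 was listed by symbol, the shared member cp (ceruloplasmin). It was at 36.5 FPKM in the ezh2-/- library and 16.9 FPKM in the WT library (2.21-fold, 2.06 to 2.36), and below 0 on both centred scales. A hepcidin locus, with the symbol hamp2 but the product name hepcidin-1, was not matched to the list symbol hamp. It is given under the other observations. None of 14 yolk syncytial layer genes and none of 5 thioester family genes outside complement was listed by symbol. A locus named alpha-2-macroglobulin-like protein 1, of the thioester family, was not matched by symbol and is also given under the other observations. Of 16 macrophage and neutrophil genes, 2 were listed and both were lower on every scale used, summing to 35.2 FPKM in the ezh2-/- library and 90.1 FPKM in the WT library. They were lyz (lysozyme), with 310 counts in the ezh2-/- library and 777 in the WT library, and spi1a, a transcription factor gene of myeloid cells, with 12 counts in the ezh2-/- library and 58 in the WT library. Of 16 epidermis and periderm genes, 3 were listed and all 3 were higher (1 of 3 on both centred scales), summing to 126 FPKM in the ezh2-/- library and 50.3 FPKM in the WT library. They were the cell adhesion gene cdh1 (2.99-fold, 2.79 to 3.20) and the plakin genes ppl (2.14-fold, 2.06 to 2.23) and evpla (2.12-fold, 1.96 to 2.29). No listed marker was at 0 in either library, and markers outside the table were not analysed here. The part of these cell types in the complement levels was not tested.

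**Figure D5:**
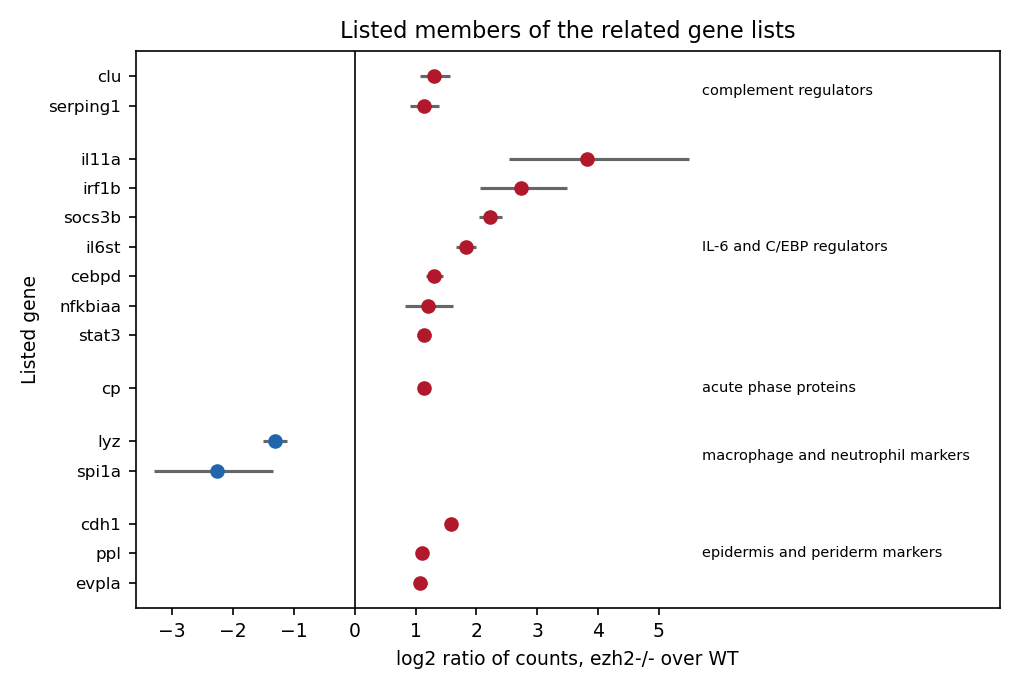
Log2 ratio of counts, ezh2-/- over WT, with 95% exact counting intervals, for the listed members of 5 gene lists; red is higher and blue lower in ezh2-/-. The members of 4 lists lie right of 0 on the authors' scale, though serping1, stat3, nfkbiaa, cp, ppl and evpla lie left of it on both centred scales, and the macrophage and neutrophil genes lyz and spi1a lie left of it.

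The C3 copies also share a label in the annotation, singled out after the values were seen. All 4 C3 loci carry the term cellular response to estrogen stimulus in the deposited annotation, which 9 listed loci carry in all. Of the other 5, 3 were higher (amy2al1, aqp12 and an uncharacterized locus) and 2 lower (vitellogenin 7 and nupr1b). The term immune response is carried by 11 listed loci, of which 6 are complement loci, and of the other 5, 4 were higher and 1 lower. Of all listed loci, 68.1% were at least 2-fold higher and 31.9% at least 2-fold lower. These counts are too small to set either term apart from that share.

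Genes nearest to a complement locus by counts were found as the smallest distance between log2 counts over the 2 libraries. Only listed loci with a descriptive product name and outside the complement loci were searched. Loci without such a name can lie nearer than those given. For c3a.1 they were myh9a, mvp and a cathepsin L1-like locus, at distances of 0.213 to 0.453 log2 units. For c3a.2 they were il4r.2, a heat shock cognate 70 kDa locus and muc5.1, at 0.497 to 0.841. For cfb they were col14a1a, bcam and rhoub, at 0.0850 to 0.0875. For c7a they were cyp17a1, a locus named inter-alpha-trypsin inhibitor heavy chain H5 and a niban-like locus, at 0.0448 to 0.0908. Over 2 libraries such likeness means only that the counts are alike. The deposited product names of il4r.2 (interleukin 4 receptor, tandem duplicate 1) and muc5.1 (mucin-2) differ from those symbols.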

How the data were processed

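Poly(A) RNA of whole embryos was made into libraries with a NEBNext Ultra RNA kit, per the labels' protocols, which does not mark strand. The submitters' processing notes name the build GRCz10, Bowtie 0.12.2 and Cufflinks, with no role; neither the counting tool nor the test is given in the sources used here. Per the file headers, the authors deposited raw counts and FPKM values of both libraries, an FDR (an adjusted p-value) and a log2 fold change. Columns were matched to samples by the code in the titles.

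The log2 fold change was log2((ezh2-/- count + 0.5)/(WT count + 0.5)) plus 0.0144, the median gap to the authors' deposited log2 fold change over 391 loci with at least 200 counts in both libraries. Folds are count ratios on that scale (a factor of 1.01). Intervals are Clopper-Pearson for folds and shares, and conditional exact for ratios of folds (Python 3.11.15, scipy 1.17.1). PCR copies were not marked, so reads may share a molecule and intervals cover counting error only. Library totals are unknown, since the table is a selection. The log2 fold changes and the fold intervals were tested on simulated counts with counting error alone. The simulated scale was built into the fold changes from which it was read back. That step checked the calculation only and cannot show whether the scale between the libraries is right. Unlike here, most simulated loci did not differ. The shares, ratios of folds and centred scales were not tested in this way.

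Symbols come from zebrafish KEGG hits (562 loci), updated through RefSeq by gene ID. Zebrafish Swiss-Prot gene names were also searched for list members, and could name loci without a KEGG symbol. The symbol of 1 gene, spi1a, was read from its product name. The complement loci were named by KEGG hit or product in 7 cases and by product alone in 3. Every complement locus is named, as are listed members of the 13 lists. In lists of over 6 listed members, the 4 with the largest absolute fold and at least 50 counts in 1 library are named. For c3a.1, c3a.2, cfb and c7a, the 3 nearest loci with a descriptive name and outside the complement loci are named. The members and lists were chosen with earlier results of these data known. Alternatives changed the scale, the added count, the unit, the filter and the naming. No promoter, transcript or protein sequences were used here.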

Additional observations from a re-analysis of the deposited data

How the results depend on the processing

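All 10 complement loci stayed at least 2-fold higher, each inside its counting interval, in the following settings. They were no scale between the libraries, 5 or 0.1 counts added, FPKM in place of counts, and the authors' deposited log2 fold changes. The last could not come out otherwise, since the authors listed only loci at least 2-fold different. Using no scale changes each fold only by a factor of 1.01. With at least 50 counts in 1 library, 9 loci were left, and by KEGG hit alone 7. Both settings only take a part of the 10 loci, so all of those left were bound to be at least 2-fold higher. Centring on the listed loci moved every value. With their median set to 0, the log2 fold changes were -0.10 for c3a.1, -0.11 for cfb and -0.13 for c7a, and -0.047 for the C3 sum, while 2 complement loci were at least 2-fold higher. With their 30% trimmed mean set to 0, these were -0.014 for c3a.1, -0.024 for cfb, -0.046 for c7a and 0.036 for the C3 sum, again with 2 loci at least 2-fold higher. Under both, 1 C3 symbol of 2 was at least 2-fold higher, and 0 were in the lists of alternative pathway, classical and lectin pathway, terminal pathway, complement regulators, acute phase proteins, liver and epidermis. Of the 7 IL-6 and C/EBP regulators, 2 were with the median set to 0 and 3 with the trimmed mean. Among all listed loci, 16.3% were at least 2-fold higher with the median set to 0 and 17.5% with the trimmed mean. The C3 sum, 1.26 on the log2 scale, was 1.62 without c3a.1; c3a.1 alone gave 1.21, the C3-H1-like locus 1.42, c3a.2 3.60 and the C3-like locus 2.45. Added after seeing the data, KEGG symbols alone left 1 lower macrophage and neutrophil gene in place of 2, and the sum over the loci outside C3, 1.52 on the log2 scale, was 1.70 without cfb. No paired analysis was possible because each genotype has 1 library. Depth limits the C3-like locus most, with 7 WT counts.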

Other observations

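Further loci of cytokine signalling and of the acute phase response stand in the table under names that are not in the lists. They were picked by hand after their values were seen, with no search rule. They therefore do not show how such loci went as a set. Among all listed loci, 68.1% were at least 2-fold higher and 31.9% at least 2-fold lower. A locus named alpha-2-macroglobulin-like protein 1, of the protein family that C3 and C4 belong to, had 313 counts in the ezh2-/- library and 67 in the WT library (4.72-fold, 3.61 to 6.24). The hepcidin locus with the symbol hamp2 has the product name hepcidin-1, so which hepcidin gene it is was not settled. Hepcidin is a peptide that lowers iron export and is induced by IL-6 in mammals. The hepcidin locus had 38 counts in the ezh2-/- library and 2 in the WT library (19.2-fold, 4.96 to 164). A locus named interleukin-6 receptor subunit beta-like had 71 counts in the ezh2-/- library and 6 in the WT library (11.95-fold, 5.23 to 33.7). A locus named leukemia inhibitory factor receptor alpha b had 84 counts in the ezh2-/- library and 25 in the WT library (3.39-fold, 2.15 to 5.54). The tumor necrosis factor receptor gene tnfrsf1a had 552 counts in the ezh2-/- library and 151 in the WT library (3.69-fold, 3.08 to 4.45), and the feedback gene socs2 had 97 counts in the ezh2-/- library and 22 in the WT library (4.45-fold, 2.78 to 7.43). Smaller folds were found for the receptor genes il13ra1 (2.98-fold, 2.22 to 4.05) and il17rc (2.84-fold, 2.21 to 3.68) and for the transcription factor gene stat5a (2.38-fold, 1.92 to 2.97), which lay below 0 on the log2 scale with the median of the listed loci set to 0.

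The loci that follow were picked in the same way. Loci named for the macrophage mannose receptor went both ways. The locus mrc1b had 88 counts in the ezh2-/- library and 27 in the WT library (3.29-fold higher, 2.12 to 5.27), and another locus named macrophage mannose receptor 1-like had 125 counts in the ezh2-/- library and 604 in the WT library (4.78-fold lower, 3.94 to 5.85). A pair of further loci named for envoplakin, a plakin of stratified epithelia, were higher: 4119 counts in the ezh2-/- library and 2033 in the WT library at the first (2.05-fold, 1.94 to 2.16; below 0 on the log2 scale with the median or the trimmed mean of the listed loci set to 0), and 443 counts in the ezh2-/- library and 98 in the WT library at the other (4.57-fold, 3.66 to 5.74).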
